A study of Mus musculus with 4 samples.

Results

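Ribosome biogenesis genes encode the factors that make the ribosomal RNAs and assemble them with proteins into ribosomes. The set described here was a named list of 33 genes, taken by symbol, and 30 of them were found among the 19465 genes counted in the series. Nolc1, Mybbp1a and Ddx21 were not found by symbol and were not analysed here. All of the 30 genes found passed the filter on low counts in each of the tests below.

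The data were spatial transcriptomes of 4 tissue sections, a primary tumour (PT) and a lung from each of 2 BALB/c mice, named A and B after ascending label number. Each mouse was injected in the mammary fat pad with 100000 cells of the syngeneic 4T1 line, a model of triple-negative breast cancer known to seed lung metastases, at 8 weeks of age, and was killed 28 days later, so that both tissues of each mouse carried the same cells and there was no uninjected animal. Fixed, paraffin-embedded sections of 4 µm were profiled by 10x Visium, which reads gene-specific probe pairs on barcoded spots and counts each captured pair once through its unique molecular identifier (UMI). One spot covers a patch of tissue with cells of more than 1 type, and n = 2 mice for every group.

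Ribosome production starts in the nucleolus, where RNA polymerase I transcribes the precursor of the ribosomal RNAs. Box C/D small nucleolar ribonucleoproteins guide 2'-O-methylation of that precursor and box H/ACA particles guide its pseudouridylation, while processing factors cut it and build the small and large subunits around it. Many of these genes are known targets of the transcription factor Myc, which is itself on the list, and growing tumour cells are known for a high output of ribosomes. Genes of the ribosomal proteins themselves were not analysed here.

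The number of kept spots, those with more than 200 genes, was 2490 and 2372 in the PTs and 1697 and 2780 in the lungs, mouse A first. The total depth ranged from 10890154 UMIs (PT of mouse B) to 30240176 UMIs (lung of mouse B). The labelled tissues were checked on markers fixed in a list. Markers of the alveolar epithelium summed to 13683 and 7737 CPM (UMIs per 1000000 UMIs of the summed spots) in the lungs and to 26.2 and 71.5 CPM in the PTs. The PT of mouse B stood apart from the other sections, with 42.5 UMIs per spot on 1178 olfactory and vomeronasal receptor genes, which neither tissue is known to use, against 1.59 to 4.72 in the other 3 sections. Per receptor gene this was an average of 7.86 CPM in that section, where the lowest member was at 12.4 CPM.

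To find the tumour within each section, every spot was given a tumour score, the mean of log2(CPM + 10) over 8 genes known from 4T1 tumours (Hmga2, Wnt7b, Csf3, Ereg, Fgfbp1, Plau, Mmp3 and Tm4sf1), with the UMIs of the spot and its neighbours pooled. Spots at or above percentile 90 of the score in a section are called tumour-rich and those at or below percentile 50 tumour-poor. Hmga2, a chromatin protein of embryonic and tumour cells, was at 85.2 CPM in tumour-rich and 1.63 CPM in tumour-poor spots of the lung of mouse A. In the lung of mouse B it was at 157.5 and 32.1 CPM, so its tumour-poor spots still held tumour transcripts. In the PTs, where most spots were expected to hold tumour, Hmga2 was at 361 against 299.6 CPM in mouse A and 427 against 241 CPM in mouse B. Not every score gene ran this way, since Fgfbp1 was lower in tumour-rich spots of the lung (5.66 against 18.6 CPM) and PT (6.96 against 19.2 CPM) of mouse B, as was Ereg in that PT (6.05 against 21.5 CPM). In tumour-poor spots of that PT the receptor genes averaged 21.6 CPM per gene, so Ereg and Fgfbp1 lay no higher than this background there. The 8 score genes chose the spots and were left out of every test.

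Summed over all 30 members, the level was 3.32-fold higher in tumour-rich than in tumour-poor spots of the lung of mouse A (2898 against 872 CPM) and 3.02-fold higher in the lung of mouse B (6516 against 2159 CPM). In the PTs the same sum hardly differed, at 4718 against 4578 CPM in mouse A (a ratio of 1.03) and 5245 against 5444 CPM in mouse B (a ratio of 0.964). With the average CPM of a receptor gene in the same spots taken off each member, an alternative added after the data were seen, the PT ratios were 1.04 and 1.08 and the lung ratios 3.34 and 3.03, so the direction in the PT of mouse B turned. The lung groups therefore did not overlap, and the PT groups did. These sums are given without a test, since an unpaired exact permutation of 2 mice against 2 cannot give a two-sided p below 0.333. In a spot that holds several cells, more cells of a type and more RNA per cell cannot be told apart. As a mean of single-spot CPM over spots with at least 1000 UMIs, each spot weighted alike, the ratios were 2.99 and 3.09 in the lungs. In the PTs they were 0.991 and 0.993. This left out 760 of the 1245 tumour-poor spots of the PT of mouse A, 21 of its tumour-rich ones, 44 tumour-poor spots of the PT of mouse B and at most 6 spots of any other class.

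**Figure D1:**
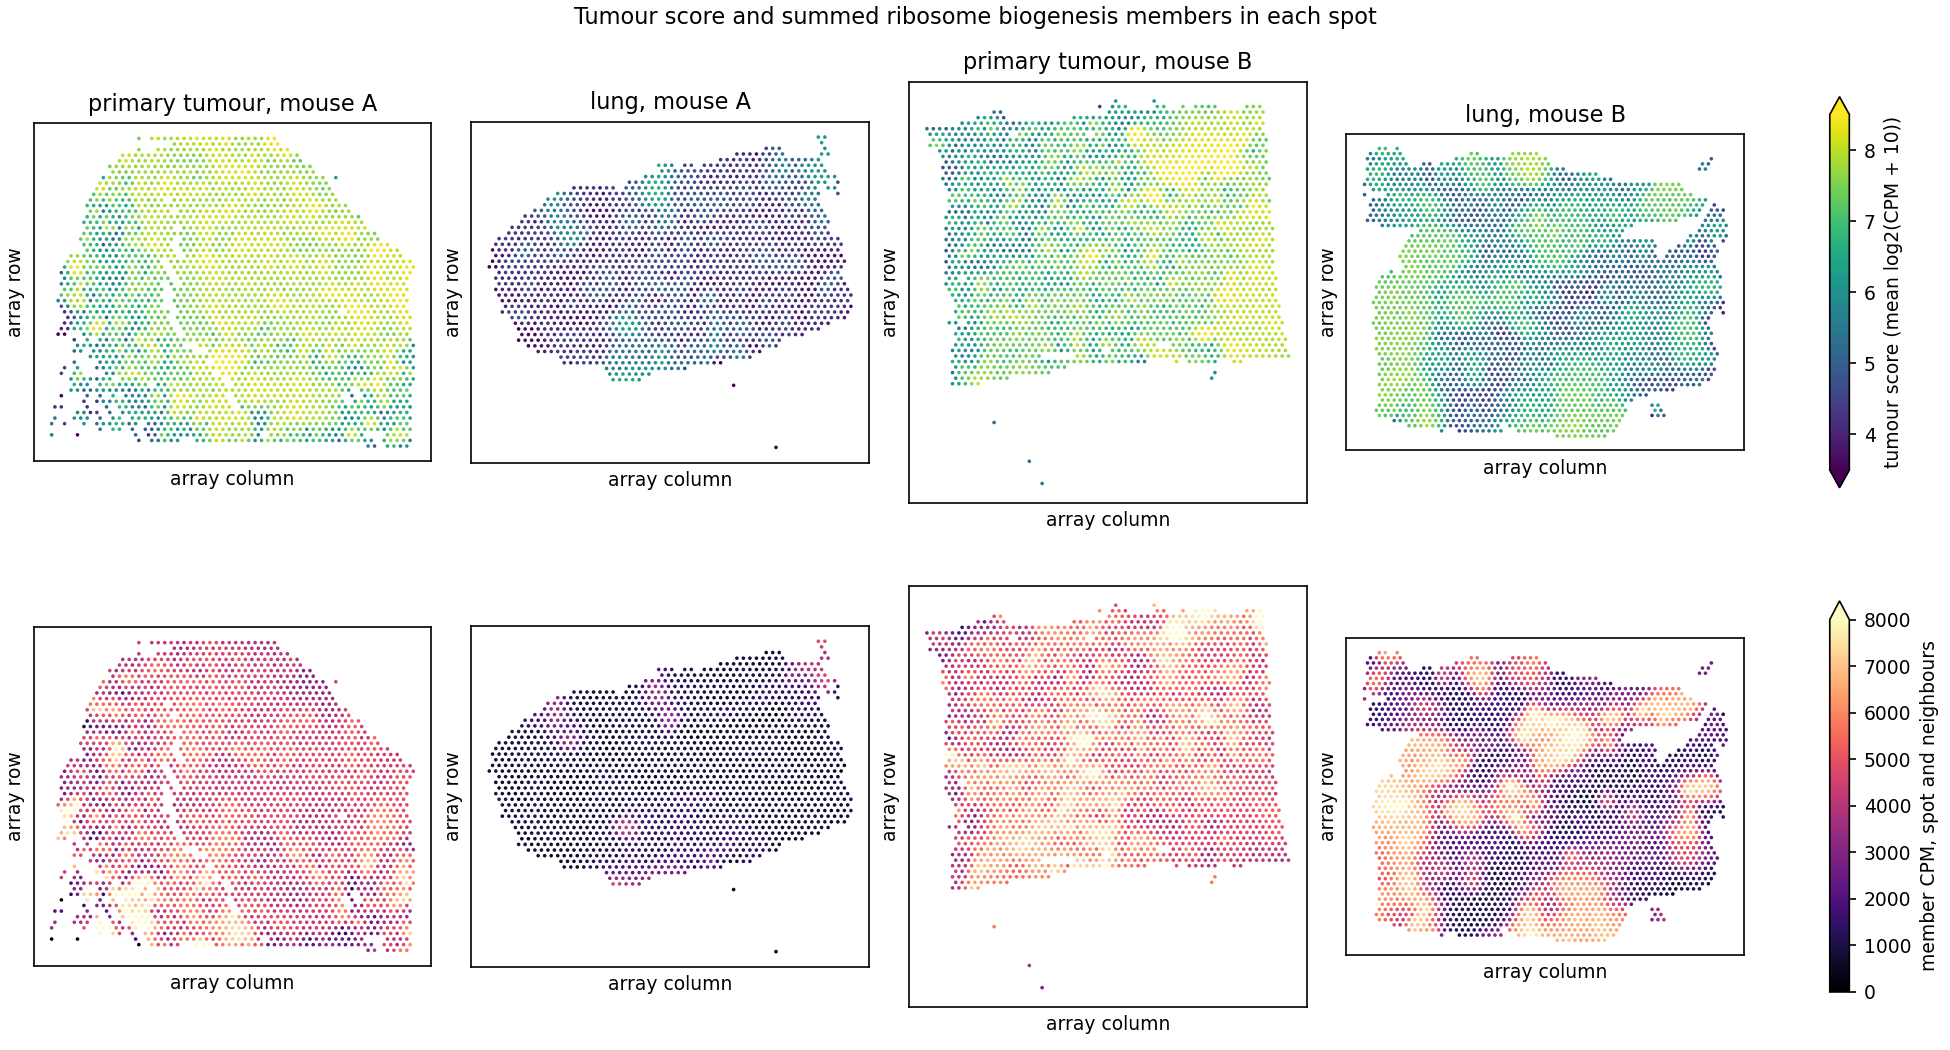
Each point is a spot at its place on the capture array (array column and row), coloured by tumour score in the upper row and by the summed CPM of the 30 members over the spot and its neighbours in the lower row, for the 4 sections. In both lungs the patches with a high tumour score are the patches with a high member level, while in the PTs the members are high over most of the section.

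Along the tumour score the members took a different course in each lung. In the lung of mouse A the summed level was 804 CPM in the lowest decile of spots, 1174 CPM in decile 8, 1535 CPM in decile 9 and 2897 CPM in the highest, so that most of the difference lay in the last 2 deciles. In the lung of mouse B it went from 1332 CPM in the lowest decile through 3103 CPM in decile 5 to 6007 CPM in decile 8, and then lay at 6459 and 6516 CPM in the last 2 deciles. In the PT of mouse A all 10 deciles lay between 4438 and 4786 CPM. In the PT of mouse B they lay between 4847 and 6111 CPM, with the highest value in decile 7 and not at the top of the score, while the summed receptor genes there fell from 38736 CPM in the lowest to 2762 CPM in the highest decile. Across spots, the rank correlation of the score with the pooled member level was 0.618 in lung A (1697 spots) and 0.902 in lung B (2780 spots), against 0.0292 over 2490 and 0.0985 over 2372 spots in the PTs. These correlations are descriptions, since neighbouring spots share pooled UMIs and both measures share each spot's depth.

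**Figure D2:**
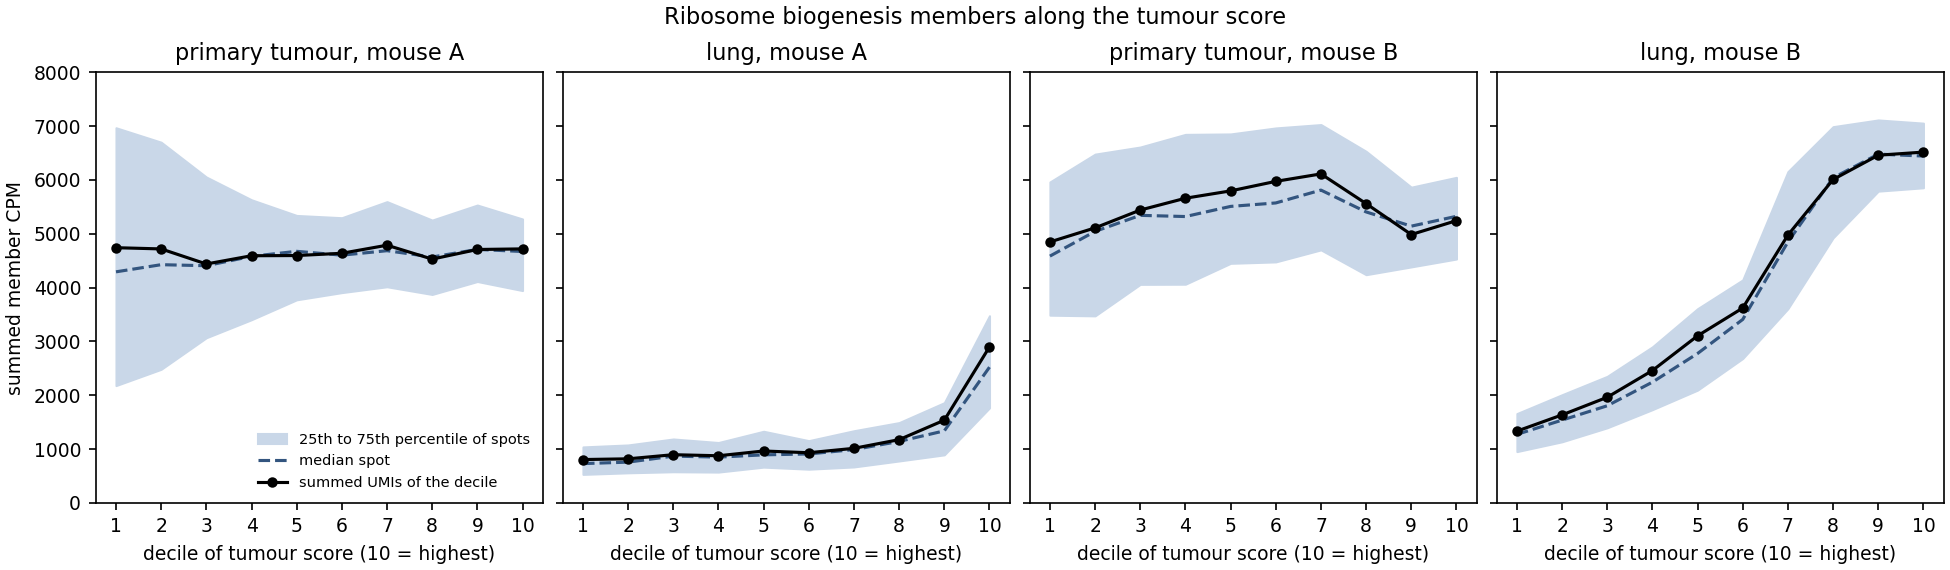
Summed member CPM (vertical axis) in each decile of the tumour score (horizontal axis) for the 4 sections, with points for the summed UMIs of a decile, a dashed line for the median spot and a band from the 25th to the 75th percentile of spots. The curve climbs to 2897 CPM in the lung of mouse A and to 6516 CPM in the lung of mouse B and stays between 4438 and 6111 CPM in the PTs.

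Every one of the 30 members had a higher CPM in tumour-rich than in tumour-poor spots in both lungs, where 45.7% of all genes tested had. Over the members, the log2 ratio of CPM had a median of 1.59 (mouse A) or 1.49 (mouse B). For 27 of the 30 members the lower of the tumour-rich sums was above the higher of the tumour-poor sums, so that the groups did not overlap, which in this direction held for 35.9% of all genes. The question of this comparison is whether the members are higher where metastatic tumour transcripts are, and it was tested with edgeR's quasi-likelihood test over all genes. In the main model, which does not pair the mice, 0 of 14046 genes (0%) passed an adjusted p of 0.05, no member among them (68 genes with DESeq2, of which Nop56 is a member), and 24 of the 30 members were higher at an unadjusted p under 0.05, where 10.6% of all genes were. Tumour-rich and tumour-poor spots of a mouse come from the same section, which pairs them. In the model with the section as a block, 27 of the 30 members rose at an adjusted p under 0.05, where 10.4% of all genes tested rose, and no member fell. The median edgeR log2 fold change was 1.37 over the members and -0.02 over all genes in the main model, and 1.39 and -0.04 with the block. These fold changes are on edgeR's TMM scale (trimmed mean of M values), which lies somewhat below the plain CPM ratios in the lung.

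**Figure D3:**
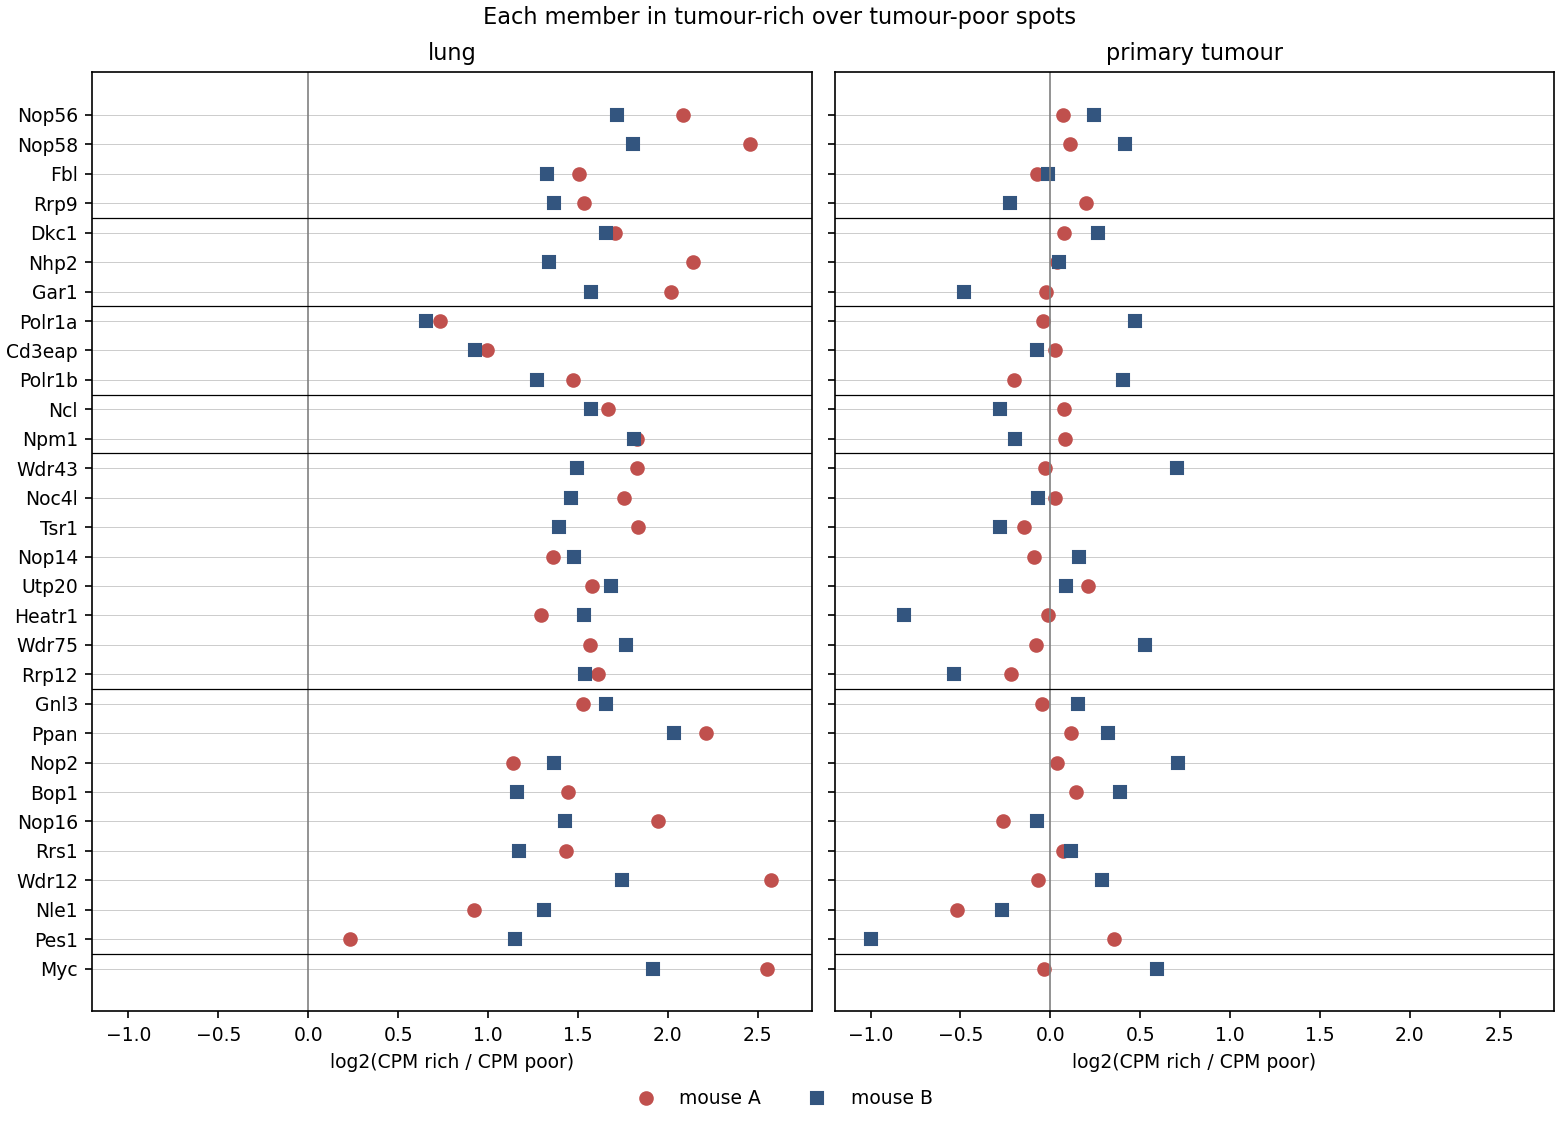
Log2 ratio of CPM in tumour-rich over tumour-poor spots (horizontal axis) for each member (rows, with lines between role groups), in the lung on the left and the PT on the right, with a circle for mouse A and a square for mouse B. All points of the lung lie to the right of 0, and those of the PT lie on both sides of it.

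Among the proteins of the box C/D particle, all of the 4 members rose with the block. Nop56, a core scaffold protein of the particle, was at 264 and 537 CPM in tumour-rich lung spots of mice A and B and at 62.2 and 163 CPM in tumour-poor ones. Its edgeR log2 fold change was 1.63 ± 0.50 (SE, adjusted p = 0.308, and 0.000518 with the block). Nop58, its partner scaffold, was at 150 and 368 CPM against 27.3 and 105 CPM, a log2 fold change of 1.78 ± 0.61 (SE, adjusted p = 0.308 by edgeR, and 5.54e-05 with the block). For both scaffold genes tumour-rich spots were higher in each mouse, and for both the gap between the mice was also wide. Fbl, the methyltransferase fibrillarin, and Rrp9, which binds the U3 particle, had smaller log2 fold changes of 1.19 and 1.23.

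Of the box H/ACA group, the 3 members measured rose with the block. Dkc1, the pseudouridine synthase dyskerin, was at 126 and 303 CPM in tumour-rich lung spots of mice A and B against 38.5 and 96.2 CPM in tumour-poor ones. Its log2 fold change was 1.47 ± 0.51 (SE, edgeR adjusted p = 0.308, and 0.000437 with the block). Nhp2, which binds the guide RNA beside dyskerin, was at 82.9 and 164 CPM against 18.8 and 64.7 CPM, a log2 fold change of 1.37 ± 0.53 (SE, edgeR adjusted p = 0.310, and 0.000217 with the block). Gar1, another core protein of the particle, was at 40.3 and 49.5 CPM against 9.95 and 16.6 CPM, which was a narrow range between the mice. The log2 fold change of Gar1 was 1.55 ± 0.33 (SE, edgeR adjusted p = 0.308, and 0.000124 with the block).

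In the RNA polymerase I group 1 of the 3 measured members rose with the block, and the median log2 fold change in the main model was 0.76. Polr1a, the largest subunit of the polymerase, was at 56.8 and 74.4 CPM in tumour-rich lung spots against 34.2 and 47.2 CPM in tumour-poor ones. Its log2 fold change of 0.49 ± 0.33 (SE, edgeR adjusted p = 0.492, and 0.273 with the block) was the smallest of all members in the main model. Cd3eap, a subunit of the polymerase, was at 24.5 and 42.3 CPM against 12.3 and 22.2 CPM, with a log2 fold change of 0.76 ± 0.37 (SE, edgeR adjusted p = 0.352, and 0.0882 with the block). Polr1b, the second largest subunit, was at 16.6 and 40.1 CPM against 5.97 and 16.6 CPM and was the member of this group that rose, with a log2 fold change of 1.16 ± 0.53 (SE, edgeR adjusted p = 0.331, and 0.0104 with the block). No test of the difference between role groups was made.

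The nucleolar proteins Ncl and Npm1 took the largest shares of the members' UMIs in every section, and both rose with the block. Ncl, nucleolin, which takes part in transcription and processing of ribosomal RNA, was at 749 and 1679 CPM in tumour-rich lung spots of mice A and B against 235 and 564 CPM in tumour-poor ones. Its log2 fold change was 1.40 ± 0.54 (SE, edgeR adjusted p = 0.310, and 0.0411 with the block). Npm1, nucleophosmin, a chaperone of ribosomal proteins and histones, was at 384 and 962 CPM against 108 and 274 CPM, a log2 fold change of 1.62 ± 0.56 (SE, edgeR adjusted p = 0.308, and 0.00956 with the block). The range between mice was wide for both genes, and within each mouse tumour-rich spots were 2.98-fold to 3.55-fold higher. Npm1 has near-identical processed copies in the genome, and how its probes behave towards them was not tested. Without Npm1 the summed ratio of the members was 3.29 and 2.95 in the lungs.

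All of the 8 members that process the small subunit rose with the block. Wdr43, a part of the early processing complex, was at 82.9 and 198 CPM in tumour-rich lung spots against 23.3 and 70.0 CPM in tumour-poor ones, with a log2 fold change of 1.40 ± 0.59 (SE, edgeR adjusted p = 0.314, and 0.000488 with the block). Noc4l, which acts in small subunit export together with Nop14, was at 72.6 and 114 CPM against 21.5 and 41.5 CPM, with a log2 fold change of 1.37 ± 0.36 (SE, edgeR adjusted p = 0.308, and 0.000389 with the block). Utp20, Heatr1, Wdr75, Nop14, Rrp12 and Tsr1, also needed for the small subunit, had log2 fold changes from 1.21 (Heatr1) to 1.51 (Wdr75). Wdr75 was low throughout, at 13.4 and 28.3 CPM against 4.52 and 8.31 CPM.

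Of the 9 members that assemble the large subunit, 8 rose with the block. Ppan was at 80.5 and 217 CPM in tumour-rich lung spots of mice A and B against 17.4 and 53.1 CPM in tumour-poor ones, and its log2 fold change of 1.89 ± 0.58 (SE, edgeR adjusted p = 0.308, and 1.1e-05 with the block) was the largest of all members in the main model. Gnl3, the nucleolar GTPase nucleostemin, was at 79.7 and 226 CPM against 27.7 and 71.7 CPM, a log2 fold change of 1.43 ± 0.55 (SE, edgeR adjusted p = 0.310, and 0.00125 with the block). The trio of Pes1, Bop1 and Wdr12, which form 1 complex in large subunit maturation, had log2 fold changes that ranged widely, with no test of the differences between them. Wdr12 was at 35.5 and 94.4 CPM against 5.97 and 28.2 CPM, with a log2 fold change of 1.74 ± 0.65 (SE, edgeR adjusted p = 0.308, and 1.15e-05 with the block). Bop1 was at 69.5 and 121 CPM against 25.5 and 53.9 CPM, a log2 fold change of 1.06 ± 0.42 (SE, edgeR adjusted p = 0.312, and 0.00453 with the block). Pes1 was at 5.53 and 8.13 CPM against 4.70 and 3.67 CPM, a log2 fold change of 0.51 ± 0.66 (SE, edgeR adjusted p = 0.738, and 0.696 with the block). Counts of Pes1 in tumour-rich spots were 7 UMIs in lung A and 46 UMIs in lung B, and the part of depth in its missing call was not tested. Nop2, Nop16, Nle1 and Rrs1, which also serve the large subunit, rose with the block, with main log2 fold changes from 1.01 (Nle1) to 1.41 (Nop16).

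Myc, the transcription factor, was at 89.98 and 270.3 CPM in tumour-rich lung spots of mice A and B and at 15.4 and 71.5 CPM in tumour-poor ones. Its CPM was 5.85-fold higher in mouse A and 3.78-fold higher in mouse B. Its edgeR log2 fold change was 1.87 ± 0.70 (SE, adjusted p = 0.308, and 2.32e-05 with the block) and was the second largest of the list after Ppan in the main model and the largest with the block, at 1.998. The tumour-poor spots of the lung of mouse B held nearly as much Myc as the tumour-rich spots of the lung of mouse A.

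Because the members were higher together in the lung beside Myc, their promoters were searched for the E-box CACGTG, the sequence that Myc with its partner Max is known to bind and that reads the same on both strands. RefSeq promoters (GRCm38.p6, from 250 bases before to 50 bases after the annotated start of the gene) were held for 24 of the 30 members and not for Fbl, Npm1, Rrp12, Bop1, Rrs1 and Myc. The E-box was in 7 of the 26 windows of these members (26.9%), each of a different member, and 7.15% of all 32851 promoter windows hold it. The matches are shown because they let the members with the motif be read beside their values. Each is printed 5' to 3' on the strand of the gene, with the E-box in capitals and up to 12 bases on either side.
Nop2, chr6:125131811-125131840, plus strand: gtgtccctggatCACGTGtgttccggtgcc
Cd3eap, chr7:19359684-19359713, minus strand: gttggaagaaacCACGTGagcaaagttgtc
Cd3eap, chr7:19359446-19359475, minus strand: accccttggatcCACGTGgtgggcagcgtt
Utp20, chr10:88826765-88826789, minus strand: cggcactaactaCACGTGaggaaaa
Pes1, chr11:3963965-3963994, plus strand: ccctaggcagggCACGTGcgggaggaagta
Tsr1, chr11:74898092-74898121, plus strand: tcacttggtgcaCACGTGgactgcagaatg
Nle1, chr11:82908355-82908384, minus strand: tcggttctcctcCACGTGgggacgcaggat
Wdr43, chr17:71616220-71616249, plus strand: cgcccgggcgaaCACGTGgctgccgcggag

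The E-box of Nop2 began 60 bases before the annotated start and the first of Cd3eap 218 bases before it. In the second match of Cd3eap and in Utp20, Pes1, Tsr1, Nle1 and Wdr43 it began from 3 to 38 bases into the transcribed region. The members with an E-box included the low changers Pes1 and Cd3eap as well as Utp20 (log2 fold change 1.45) and Wdr43 (1.40). Their median log2 fold change in the lung was 1.11, against 1.41 for the members with a window and no E-box. Ppan, Nop58 and Wdr12, which had some of the largest fold changes, had no CACGTG in their windows. A match of these letters is a description of the sequence only.

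Of 120 other ribosome biogenesis genes measured from a list of 128, 53 rose and 0 fell in tumour-rich lung spots with the block, where 10.4% of all genes rose, and 5 had a log2 fold change below 0 without passing. Their median log2 fold change in the main model was 0.83, and no test of the difference from the members was made. Their sum was 6653 against 3740 CPM in mouse A and 11591 against 5558 CPM in mouse B. Wdr36, a part of the small subunit processome, was at 97.9 and 210.4 CPM in tumour-rich lung spots against 23.3 and 59.2 CPM in tumour-poor ones, and Rrp15 was at 22.9 and 58.0 CPM against 5.61 and 18.2 CPM. These were the highest fold changes of that list among genes above 10 CPM, with log2 values of 1.71 and 1.59. At the other end Ddx47 was at 77.4 and 86.4 CPM against 77.8 and 81.4 CPM (log2 fold change -0.17, adjusted p = 0.778 by edgeR), and Utp14a at 48.9 and 46.0 CPM against 47.9 and 54.0 CPM (-0.32, adjusted p = 0.621 by edgeR).

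Of 15 tested Myc targets outside the ribosome, 12 rose with the block, where 10.4% of all genes rose, with a median main log2 fold change of 1.36. Cad, the enzyme that starts pyrimidine synthesis, was at 118 and 243 CPM in tumour-rich lung spots of mice A and B against 23.5 and 69.8 CPM in tumour-poor ones. Odc1, ornithine decarboxylase, was at 12.6 and 11.7 CPM against 1.27 and 4.54 CPM. Hk2, a hexokinase, and Slc3a2, an amino acid transporter chain, had the lowest log2 fold changes of that list, at 0.52 and -0.07, and neither passed the test. Hk2 was at 37.1 and 54.1 CPM against 26.8 and 28.4 CPM and Slc3a2 at 168 and 160 CPM against 154 and 142 CPM. Among the 11 tested partners and antagonists of Myc, 1 rose and 3 fell with the block, where 9.67% of all genes fell. Mxd3, a Max partner expressed in cycling cells, was at 22.1 and 30.2 CPM against 2.53 and 8.502 CPM (edgeR log2 fold change 2.04, adjusted p = 0.308, and 2.19 with the block, adjusted p = 0.00468). Mxd1, a repressor that pairs with Max and is known from mature myeloid cells, was at 350 and 63.8 CPM in tumour-rich against 639 and 597 CPM in tumour-poor spots (edgeR log2 fold change -1.79, adjusted p = 0.319, and -2.26 with the block, adjusted p = 0.000115). Mxd4, of the same repressor family, was at 67.9 and 34.6 CPM against 99.1 and 95.8 CPM (edgeR log2 fold change -1.16, adjusted p = 0.308, and 0.0013 with the block). Zbtb17, a zinc finger partner of Myc, was at 25.3 and 23.3 CPM against 16.1 and 16.8 CPM (edgeR log2 fold change 0.34, adjusted p = 0.604, and 0.571 with the block).

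Other cells and measures moved with the tumour score in the lung, and their part in the members' difference was not tested. The counts below stand beside 10.4% of all genes that rose and 9.67% that fell with the block. The summed level of 10 neutrophil markers was 50030 CPM in tumour-rich and 94809 CPM in tumour-poor spots of mouse A, and 4666 and 67431 CPM in mouse B, with all 10 markers lower in the tumour-rich spots of both mice and none at 0, and 8 of them fell with the block. Among those above 10 CPM their main log2 fold changes ran from -1.36 (Ltf) to -2.14 (Mmp8). Markers of the alveolar epithelium were at 11140 and 13775 CPM in mouse A and at 2043 and 12264 CPM in mouse B, and 9 of the 10 fell with the block, as did 7 of 9 endothelial (main log2 fold changes from -0.68 for Emcn to -1.64 for Vwf) and 4 of 8 heart muscle markers. Airway markers, of which 3 of 7 fell with the block, summed to 2107 against 1160 CPM in lung A and to 51.4 against 2107 CPM in lung B, opposite ways in the mice. Of 9 macrophage markers 4 rose and none fell with the block and 5 had a log2 fold change below 0 (list median -0.36 with the block), with sums of 1025 against 465 CPM in mouse A and 1511 against 747 CPM in mouse B. C1qb, a complement chain of macrophages, was at 116.8 and 187.9 CPM in tumour-rich spots of the lungs against 20.3 and 57.2 CPM in tumour-poor ones, and C1qc, its partner chain, at 191.8 and 299.6 against 31.3 and 109.2 CPM. Among the markers above 10 CPM, the lowest was Csf1r, the receptor for macrophage growth factor, at 99.5 and 67.9 against 111.8 and 74.8 CPM. Next was the lysosomal protein Cd68, at 205 and 129.8 against 190.8 and 170.03 CPM, and neither passed. Over the whole macrophage list the main log2 fold changes reached down to -1.44. Of 9 fibroblast markers Col1a1 and Thy1 rose and Postn fell with the block, with sums of 1534 against 679 CPM and 2278 against 1567 CPM. Of 12 hypoxia genes 3 rose and none fell with the block, and their sum went opposite ways in the mice, at 721 against 758 CPM in mouse A and 1719 against 646 CPM in mouse B. Car9, a carbonic anhydrase induced by low oxygen, was at 3.95 and 327 CPM against 1.99 and 10.9 CPM, and Egln3, an oxygen sensor, at 112 and 291 CPM against 40.5 and 63.9 CPM. The lowest of that list were P4ha2, at 45.0 and 66.6 against 45.4 and 68.4 CPM, and the angiogenic factor Vegfa, at 229.7 and 87.7 against 319.9 and 105.5 CPM, and neither passed. Proliferation genes were at 1521 against 358 CPM and at 3031 against 934 CPM, and 17 of the 18 rose with the block. Top2a and Cdk1, of DNA untangling and the cell cycle engine, had log2 fold changes of 1.96 and 1.92, close to those of Ppan and Myc, and the lowest were Mki67 and Bub1b at 1.33 and 1.04. Across spots of the lungs of mice A and B, the pooled level of the members had a rank correlation of 0.528 and 0.956 with that of the proliferation genes (1697 and 2780 spots, pooled UMIs shared between neighbours), against 0.0140 and 0.0151 in the PTs. On single spots without pooling, this correlation was 0.272 and 0.855 in the lungs and 0.0215 and 0.0207 in the PTs. The median depth of a spot was 6902.5 UMIs in tumour-rich and 6503 UMIs in tumour-poor spots of lung A, against 19083 and 7351 UMIs for lung B.

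Inside the PTs no member passed the test between tumour-rich and tumour-poor spots. The main model called 0 of 14046 genes (292 at an unadjusted p under 0.05, none of them a member, and 0 genes with DESeq2), and the model with the section as a block called 1.05% of all genes and no member. With the upper set against the lower quintile of the score and the block, an alternative chosen after seeing the data, Ppan, Bop1, Wdr43 and Myc passed with log2 fold changes of 1.20, 1.18, 1.00 and 0.93, where 3.97% of all genes were higher. The median log2 fold change of the members was 0.20, against -0.10 over all genes. By CPM, 9 members were higher in tumour-rich spots of both PTs, 7 were lower in both and 14 went opposite ways in the mice. Nop2, the RNA methyltransferase with the largest log2 fold change in the PT, was at 94.9 and 106 CPM in tumour-rich spots of mice A and B against 92.5 and 65.0 CPM in tumour-poor ones (log2 fold change 0.48 ± 0.53, SE, adjusted p = 0.755 by edgeR). Nop58 was at 231 and 245 CPM against 214 and 184 CPM (0.40 ± 0.60, adjusted p = 0.797 by edgeR). Myc was at 212 and 242 CPM against 217 and 161 CPM (0.40 ± 0.68, adjusted p = 0.817 by edgeR), so that only in mouse B did the tumour-rich spots hold more.

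The lowest members of that comparison were Heatr1, Nle1 and Rrp12. Heatr1, a large scaffold of the small subunit processome, was at 28.9 and 30.6 CPM in tumour-rich and 29.1 and 53.8 CPM in tumour-poor spots (log2 fold change -0.31 ± 0.33, SE, adjusted p = 0.752 by edgeR). Nle1, which acts late in large subunit maturation, was at 31.5 and 38.4 CPM against 45.1 and 46.3 CPM (-0.24 ± 0.42, adjusted p = 0.824 by edgeR). Rrp12, an export factor, was at 14.7 and 14.5 CPM against 17.1 and 21.0 CPM (-0.23 ± 0.54, adjusted p = 0.863 by edgeR). In tumour-poor spots of the PT of mouse B the receptor genes averaged 21.6 CPM per gene, and Wdr75, Rrp12 and Pes1 lay at or below that level, while in tumour-rich spots of the same section the average was 2.35 CPM and all 30 members lay above it. In the other sums the average receptor gene was at 0.105 to 1.31 CPM and the lowest member at 3.67 CPM. Depth differed strongly as well, with a median of 6785 against 661 UMIs per spot in PT A, and 8920 against 1483 UMIs in PT B. The part of either in the PT values was not tested.

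The difference between the tumour-rich effect in the lung and that in the PT was tested as an interaction. In the main model it was above 0 for all 30 members, with a median of 1.22 log2 units over the members and 0.30 over all genes. In the main model 0 of 14046 genes passed (507 at an unadjusted p under 0.05, of which 5 are members, and 0 genes with DESeq2). With the section as a block 2 members passed, where 1.38% of all genes were higher. Gar1 had a difference of 1.67 ± 0.43 log2 units (SE, edgeR adjusted p = 0.0297 with the block, and 0.87 without), being at 41.6 and 31.5 CPM in tumour-rich against 42.4 and 43.9 CPM in tumour-poor spots of the PTs. Wdr12 had a difference of 1.61 ± 0.44 (SE, edgeR adjusted p = 0.0399 with the block, and 0.87 without), with PT levels of 28.9 and 35.4 CPM against 30.3 and 29.0 CPM. By adjusted p, Ppan (1.54 ± 0.44, edgeR adjusted p = 0.0507 with the block) and Nop16 (1.46 ± 0.42, edgeR adjusted p = 0.0515 with the block) came next. Rrp12 (1.59 ± 0.62, edgeR adjusted p = 0.185 with the block) and Myc (1.58 ± 0.48, edgeR adjusted p = 0.0703 with the block) had larger differences than these and did not pass. With other choices of tumour-rich spots and the block, Gar1 passed in 2 of the 5, Wdr12, Nop16 and Heatr1 in 1 each, and no member passed between quintiles, so which members pass rests on that choice. The receptor genes averaged 21.6 CPM per gene in the tumour-poor and 2.35 CPM in the tumour-rich spots of the PT of mouse B, against which the PT levels of Gar1 (43.9 and 31.5 CPM) and Wdr12 (29.0 and 35.4 CPM) there stand, and the part of this background in the differences was not tested. The largest main differences were those of Gar1, Rrp12 and Ppan, at 1.66, 1.61 and 1.55 log2 units, and that of Myc was 1.47. The smallest main differences were those of Polr1a, Nop2 and Cd3eap, at 0.18, 0.63 and 0.64 log2 units.

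Tumour-rich lung spots and tumour-rich PT spots were then compared, each at the highest tumour score of its own section. The 2 classes were not matched in tumour score. Its median was 5.90 and 7.53 in tumour-rich lung spots of mice A and B, against 8.21 and 8.23 in tumour-rich PT spots. In tumour-poor PT spots it was 7.25 and 6.71, above that of the tumour-rich spots of lung A. The part of this gap in the values below was not tested. No member passed, and 0.0142% of all genes did. The mice went opposite ways: 5 of the 30 members had a higher CPM in the lung than in the PT in mouse A and 27 in mouse B, with median log2 ratios of -0.38 and 0.50. The members that were higher in the lung of both mice were Dkc1, Heatr1, Rrp12, Bop1 and Wdr12, and those lower in both were Polr1b, Npm1 and Pes1. Wdr12 was at 35.5 and 94.4 CPM in tumour-rich lung spots of mice A and B against 28.9 and 35.4 CPM in tumour-rich PT spots (log2 fold change 0.97 ± 0.65, SE, adjusted p = 0.532 by edgeR). Rrp12 was at 16.6 and 38.7 CPM against 14.7 and 14.5 CPM (0.89 ± 0.53, adjusted p = 0.486 by edgeR). Dkc1 was at 126 and 303 CPM against 124 and 114 CPM (0.81 ± 0.50, adjusted p = 0.503 by edgeR), so that its 2 tissues were level in mouse A.

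Npm1 was lowest relative to the PT, at 384 and 962 CPM in tumour-rich lung spots against 1042 and 1242 CPM in tumour-rich PT spots (log2 fold change -0.82 ± 0.55, SE, adjusted p = 0.537 by edgeR). Pes1 was at 5.53 and 8.13 CPM against 12.7 and 9.38 CPM (-0.71 ± 0.66, adjusted p = 0.667 by edgeR). Polr1b was at 16.6 and 40.1 CPM against 35.5 and 45.7 CPM (-0.54 ± 0.52, adjusted p = 0.680 by edgeR). In the tumour-rich spots of the lungs of mice A and B neutrophil markers summed to 50030 and 4666 CPM, and their part in the opposite directions was not tested.

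**Figure D4:**
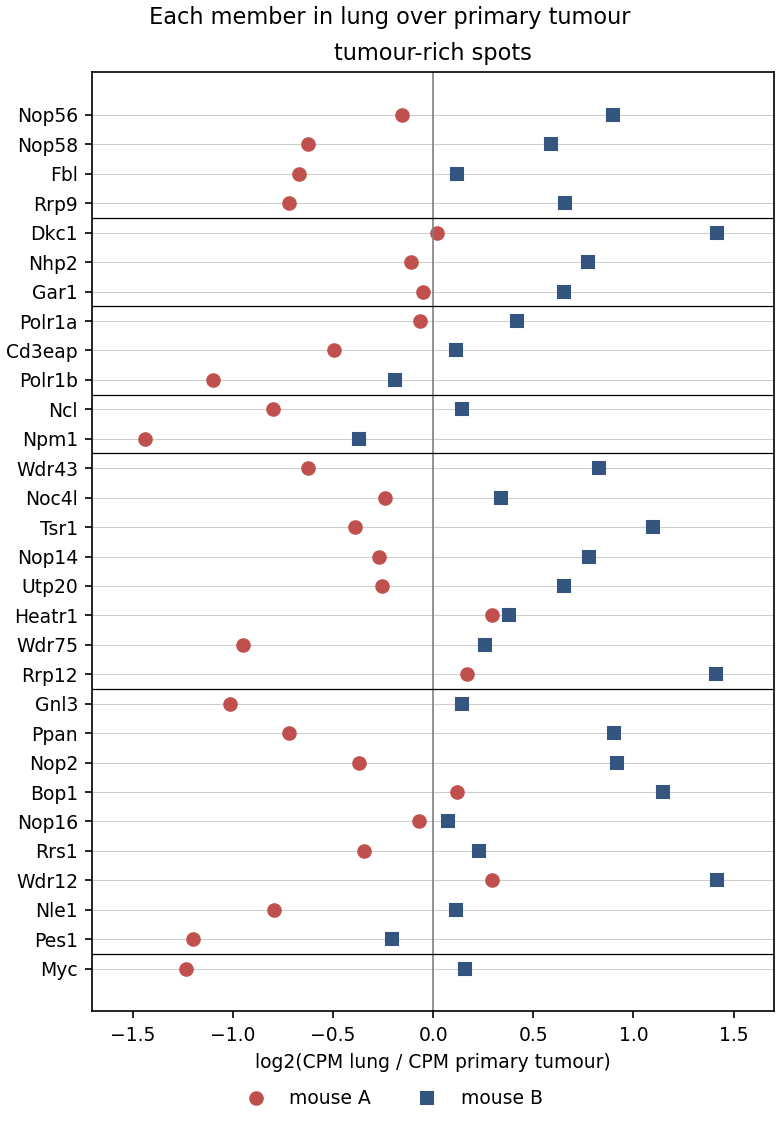
Log2 ratio of CPM in tumour-rich lung spots over tumour-rich PT spots (horizontal axis) for each member (rows, with lines between role groups), with a circle for mouse A and a square for mouse B. The median is -0.38 in mouse A and 0.50 in mouse B, and Npm1, Polr1b and Pes1 lie left of 0 in both.

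Over whole sections, the members summed to 4651 and 5378 CPM in the PTs of mice A and B and to 1213 and 4545 CPM in the lungs. The lungs thus lay below the PTs, but the lung of mouse B was far nearer to them than to the lung of mouse A. No member passed the main test of lung against PT, in which 7.58% of 15259 genes did. With the mouse as a block 1 member fell, Myc, where 2.71% of all genes did. Myc was at 25.5 and 177 CPM in the lungs against 224 and 202 CPM in the PTs, with a log2 fold change of -0.88 ± 0.65 (SE, edgeR adjusted p = 0.469) in the main model and -1.36 ± 0.47 (SE, edgeR adjusted p = 0.036) with the block. Without mouse A the log2 fold change of Myc was 0.01, so the value rests on the lung of mouse A. Npm1 was at 156 and 625 CPM in the lungs against 999.99 and 1372 CPM in the PTs (-1.38 ± 0.58, SE, edgeR adjusted p = 0.197), and passed with DESeq2 (-1.42, adjusted p = 0.0426). Polr1b was at 9.17 and 30.1 CPM against 38.1 and 41.2 CPM (-0.78 ± 0.48, edgeR adjusted p = 0.375). The highest values were those of Bop1 (0.51 ± 0.43), Dkc1 (0.43 ± 0.52) and Wdr12 (0.43 ± 0.62), each lower in the lung than in the PT in mouse A and higher in mouse B.

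Since the whole set was lower in the lung of mouse A, each member was also expressed as a share of the UMIs of all members in its section, which takes the common level out. Npm1 took 12.9% and 13.7% of the members' UMIs in the lungs and 21.5% and 25.5% in the PTs, a gap wider than that between mice. Dkc1 took 4.43% and 4.68% in the lungs against 2.70% and 1.91% in the PTs. Bop1 took 2.85% and 2.07% against 1.21% and 0.934%. In all, 15 of the 30 members had a higher share in both lungs than in both PTs, where 36.9% of all genes were higher relative to the members' sum, and 4 (Npm1, Ncl, Polr1b and Gnl3) had a lower share, where 9.38% of all genes were. The members' shares add up to the whole in each section, so a fall of an abundant member raises the others. Genes outside the list are not bound in this way, so the counts and the percentages are not like for like. No conclusion is drawn from them. The ratio of Npm1 to Ncl was 0.486 and 0.531 in the lungs and 0.805 and 0.837 in the PTs. In tumour-rich spots the gap was narrower, at 0.513 and 0.573 in the lungs and 0.801 and 0.819 in the PTs, and the tissues still did not overlap.

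**Figure D5:**
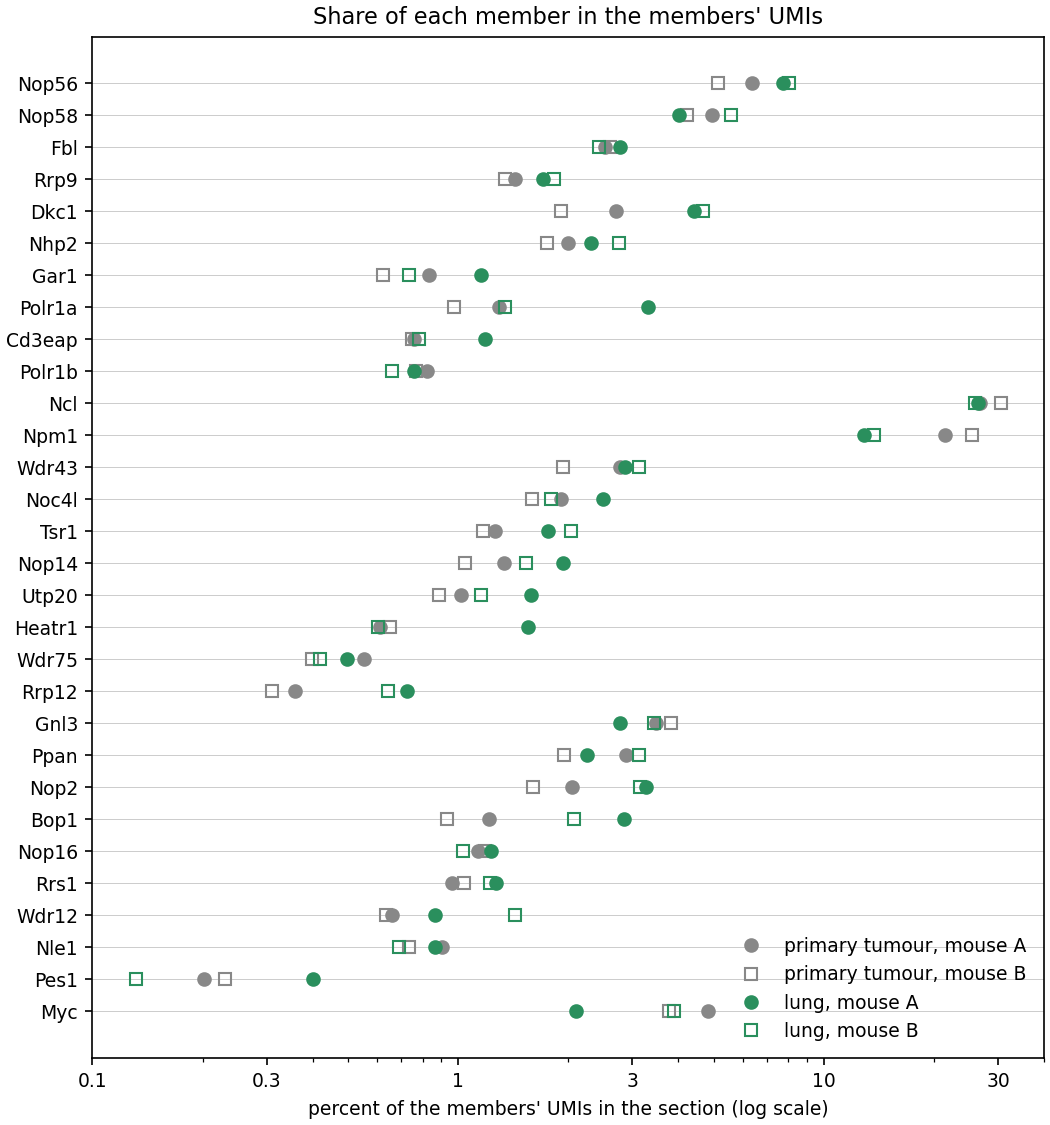
Share of each member in the UMIs of all members of a section, in percent on a log axis, with grey for the PTs and green for the lungs, filled circles for mouse A and open squares for mouse B. The lung points of Npm1 (12.9% and 13.7%) lie left of its PT points (21.5% and 25.5%), and those of Dkc1, Bop1 and Rrp12 lie right of theirs.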

How the data were processed

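The values are UMI counts, deposited by the authors without normalization together with the spot positions, from Space Ranger 2.0.0 on the mouse build mm10 according to the submitters' processing notes. Spots with more than 200 genes were kept. CPM is relative to all UMIs of the spots summed. The 4 sections gave 8 sums (tissue, spot class and mouse), tested in R 4.3.3 with edgeR 4.0.16 (TMM, filterByExpr, quasi-likelihood test, Benjamini-Hochberg adjustment over all genes tested, threshold 0.05). SE is the log2 fold change over the square root of F. DESeq2 1.42.0, other spot choices, RLE scaling, no filter and leaving out each mouse were alternatives. Python 3.11.15, numpy 2.4.6, scipy 1.17.1, pandas 2.3.3 and matplotlib 3.10.9 served for the rest. The main edgeR model was tested on counts simulated with a preset spread that was not fitted to these data. The model with the block was not tested on simulated counts.

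Tumour-rich and tumour-poor sums share a section, and lung and PT share an animal, so the mouse number pairs them. The correlation of same-mouse deviations was 0.429 within the lung, 0.662 within the PT, -0.148 between tumour-rich lung and PT spots and -0.293 between whole sections. Spots are not replicates, and each group has 1 section per mouse. Members, lists and tests were chosen with earlier results of these data known. Named with full values were the 2 members of each role group with the highest mean CPM, the 3 highest and 3 lowest log2 fold changes per comparison (for the interaction, values only) and Myc, and of the pathway and macrophage lists the 2 highest and 2 lowest above 10 CPM in the lung comparison, with values in the lung sums, while other cell markers are mostly given as sums and counts. Of the tumour-rich and tumour-poor lung sums, those of Odc1 and Mxd3 lay above 10 CPM in tumour-rich spots only. Members that passed only with the block, Fbl to Rrs1, are given by range, and Gar1, Wdr12, Bop1, Polr1b and Pes1 were added in part after their values were seen. Annotated outlines of foci were not used here.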

Additional observations from a re-analysis of the deposited data

Results flagged for a closer look

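The tumour-rich effect differed between lung and PT for Gar1 (1.67 log2 units) and Wdr12 (1.61) by edgeR's interaction test with the section as a block, and neither passed without the block (adjusted p = 0.87 for each). With 5 other choices of spots and the block, Gar1 passed in 2 and Wdr12 in 1. By CPM, 7 members including Gar1 were higher in tumour-rich spots of both lungs and lower in those of both PTs, a pattern that 11% of all genes had. In the PT of mouse B the receptor background averaged 21.6 CPM per gene in tumour-poor and 2.35 CPM in tumour-rich spots, beside 43.9 and 31.5 CPM for Gar1, 65.4 and 62.1 CPM for Nop16 and 21.0 and 14.5 CPM for Rrp12, and its part in this pattern was not tested. Their PT log2 ratios nearest to 0 were -0.0145 for Fbl, -0.0257 for Gar1, -0.0108 for Heatr1, -0.219 for Rrp12, -0.149 for Tsr1, -0.0767 for Nop16 and -0.268 for Nle1. Of these 7 members, only Gar1 passed the interaction test with the block, and none passed in the main model.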

How the results depend on the processing

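Of the 427 values recomputed under other settings, 347 did not change in sign or call, with counts within 1.5 times the main count and medians and sums within 1 SD between mice. In the lung comparison of tumour-rich with tumour-poor spots all 30 members stayed higher in each setting that kept both mice. The replicate block, which pairs the spots of a section, called 2817 of 14046 genes and 27 members there. All 27 members were called higher, as were 10.4% of all genes. With the replicate block and other spots, calls were 1983 genes and 25 members (Hmga2 and Wnt7b only), 2261 and 19 (no neighbours), 1285 and 20 (quintiles), 3288 and 26 (upper 5%) and 2571 and 26 (at least 1000 UMIs a spot). In that order, 1000 of 15030, 821 of 14831, 800 of 16480, 1262 of 12988 and 1300 of 15030 genes tested were called higher. The members called were all higher. Without the block, no filter on low counts called 647 of 19286 genes and no member, and DESeq2 called 68 of 14046 genes and 1 member. The median member log2 fold change there was 0.987 with no filter, where that of all genes was -0.52, 1.14 with no neighbours, 1.63 between quintiles and 1.26 with the upper 5%, and from 1.18 to 1.33 when a mouse was left out. The mean log2 ratio of the summed members in the lung moved to 1.52 (no neighbours), 1.81 (quintiles) and 1.77 (upper 5%). In the PT it was 0.0135 without Npm1 and 0.0189 between quintiles, reversed in sign, 0.0802 less the receptor average per gene, likewise reversed, -0.0819 with Hmga2 and Wnt7b only, and -0.0536 to 0.0436 when a mouse was left out.

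Inside the PT the replicate block called 147 of 14046 genes. With other spots it called 326 of 15030 (Hmga2 and Wnt7b only), 1800 of 14831 (no neighbours) and 375 of 12988 (upper 5%). It called 250 of 15030 (at least 1000 UMIs) and 4171 of 16480 with 4 members (quintiles), where 3.97% of all genes were higher. No filter called 17 of 19286 without the block. The interaction had 227 of 14046 genes and 2 members with the replicate block. With other spots it had 171 of 15030 and 1 (Hmga2 and Wnt7b only) and 131 of 14831 and 1 (no neighbours). It had 0 of 16480 and 0 (quintiles), 446 of 12988 and 2 (upper 5%) and 243 of 15030 and 1 (at least 1000 UMIs). Its median member value was 0.659 with no filter, and from 0.798 to 1.34 when a mouse was left out.

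Between tumour-rich lung and PT spots, calls moved to 1 gene (replicate block), 712 (no filter), 590 (DESeq2), 13 (Hmga2 and Wnt7b only), 70 (no neighbours), 372 (quintiles) and 6 (upper 5%), with no member called in any of them. The median member value was -0.125 with no filter and from -0.367 to 0.387 when a mouse was left out. Whole lung against whole PT had 1816 of 15259 genes and 1 member with the replicate block. It had 2016 of 19306 genes with no filter, 2644 of 15259 and 1 (Npm1) with DESeq2 and 685 of 14667 with at least 1000 UMIs. Its median member value ranged from -1.34 to 0.274 when a mouse was left out. Since same-mouse deviations of lung and PT went against each other, a crossed pairing in the replicate block was added. It called 426 of 14046 genes for tumour-rich spots and 2563 of 15259 genes and 2 members (Npm1 and Myc) for whole sections.

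Leaving out a mouse turned the sign of some members, given here as the values without mouse A and without mouse B. In the PT these were 0.0863 and -0.485 for Nle1, 0.944 and -0.00662 for Myc and -0.459 and 0.0202 for Heatr1. In the lung they were 0.823 and -0.0145 for Pes1. In whole sections they were 0.0106 and -2.86 for Myc, 1.11 and -0.443 for Bop1, 1.25 and -0.957 for Dkc1 and 1.14 and -1.28 for Wdr12. The cause of these shifts was not tested.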
